A study of Homo sapiens with 5 samples.

Results

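SELENOP, which encodes selenoprotein P, and 9 further genes of selenium use were followed across the 5 arrays of the study. They are SELENOK, SELENOT, SELENOM, SELENOF, SELENOS and SELENOW, which encode selenoproteins, the selenium donor enzyme SEPHS2, the insertion factor SECISBP2 and the receptor LRP8. The 10 were chosen from 18417 genes with a row of their own, because SELENOP stood out with 1 of the TIP-1 shRNAs, and the brightest row stood for each gene. That choice used the values of SELENOP, which are therefore given as a description, with no test. All 10 had a row, and none was removed by a filter.

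RNA came from D54, an established human glioma cell line, grown overnight after seeding. The control group was 2 arrays of cells transfected with control shRNA, from independent clones, and the TIP-1 group was 3 arrays, each of cells with a different shRNA against TIP-1. TIP-1, encoded by TAX1BP3, is a small protein made of 1 PDZ domain. Since each shRNA had 1 array, an effect of its sequence, its culture and its array cannot be told apart. In RNA from whole cultures, fewer cells that express a gene and less RNA per cell cannot be told apart either.

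Values are log2 signals, so a difference of 1 is a 2-fold change. The array medians lay between 7.88 and 7.98, and the arrays correlated at 0.991 to 0.997 across rows. The row of TAX1BP3, which it shares with a read-through transcript, read 12.05 and 12.10 in the 2 controls, then 9.81, 9.61 and 9.55 with shRNAs 1, 2 and 3, a difference of -2.42 (limma adjusted p = 0.011, but 0.386 without control 1, 0.387 without control 2 and 0.129 without shRNA 2). It was the only row of 33297 past an adjusted p of 0.05, or 0.003% of rows. Of the 8 markers of astrocytes and glioma cells, VIM read 13.84 to 14.02 and SOX9 10.39 to 10.74. GFAP read 7.86 to 8.14, ALDH1L1 7.31 to 7.56 and SLC1A3 6.14 to 6.57. S100B (6.23 to 6.31), SLC1A2 (5.93 to 6.19) and AQP4 (5.36 to 5.75) lay below the lower quartile of their arrays.

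Selenoproteins carry selenocysteine, an amino acid that holds selenium and is placed at UGA codons, which otherwise end translation. SEPHS2 makes the selenium donor, and SECISBP2 binds the RNA hairpin that marks a UGA for selenocysteine. Selenoprotein P differs from the others in being secreted and in holding many selenocysteines: liver releases it into plasma, and brain and testis take it up through LRP8.

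The sequences before the annotated starts are shown because SELENOP and the other members differed there as well as in signal. Each line gives the bases just before the start in RefSeq (GRCh38.p14), 5′ to 3′, with capitals on 2 motifs searched on both strands, GTAAACA, the core bound by forkhead factors such as FOXO1, and TATAAA, the TATA box. SELENOP lies at chr5:42811893-42812142 on the minus strand, SEPHS2 at chr16:30445875-30446124 on the minus strand and SELENOW at chr19:47778453-47778702 on the plus strand.
SELENOP: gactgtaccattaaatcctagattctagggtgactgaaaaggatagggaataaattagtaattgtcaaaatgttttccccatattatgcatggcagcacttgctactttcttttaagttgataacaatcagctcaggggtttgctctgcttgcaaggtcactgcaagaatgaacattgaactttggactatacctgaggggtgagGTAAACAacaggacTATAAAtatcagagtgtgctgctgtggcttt
SEPHS2: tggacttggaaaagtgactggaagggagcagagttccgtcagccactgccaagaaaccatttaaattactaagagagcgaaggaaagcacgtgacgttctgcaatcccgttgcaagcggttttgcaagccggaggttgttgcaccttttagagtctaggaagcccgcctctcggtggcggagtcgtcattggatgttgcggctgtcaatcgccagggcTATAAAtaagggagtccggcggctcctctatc
SELENOW: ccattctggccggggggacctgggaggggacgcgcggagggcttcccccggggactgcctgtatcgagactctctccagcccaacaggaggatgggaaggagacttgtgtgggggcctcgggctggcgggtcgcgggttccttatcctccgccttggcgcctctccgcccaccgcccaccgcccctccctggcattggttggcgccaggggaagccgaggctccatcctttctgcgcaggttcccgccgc

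These windows are 250 bases long. That of SELENOP held 39.6% G and C and 0 CG pairs, and 12.7% of all 35116 windows had as little G and C or less. The table held 10 windows for 8 of the other members, with 52.8% to 77.2% G and C and 14 to 33 CG pairs. SELENOM was not found in it. The forkhead letters began 45 bases before the SELENOP start and the TATA letters 31 bases before it, and the matches did not overlap. In SEPHS2 the TATA letters began 32 bases before the start. Of all windows, 2.98% held GTAAACA and 10.7% held TATAAA. Among the other members, 0 of 10 windows held the first and 1 of 10 the second. The GC box GGGCGG, bound by SP1, was in 8 of those 10 windows, not in that of SELENOP, and in 42.6% of all windows. The E box CACGTG was in 3 of those 10 windows, not in that of SELENOP, and in 6.34% of all windows. The motifs were picked with the SELENOP sequence in view, and a match is a run of letters, not a measured site.

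SELENOP was high on 1 array. Its log2 signal was 6.04 and 5.85 in controls 1 and 2, 5.73 and 5.88 with shRNAs 1 and 2, and 8.94 with shRNA 3. The first 4 arrays lay within 0.31 of each other, and shRNA 3 lay 2.90 above the highest of them. Against the control mean, shRNA 3 was 2.99 higher, a 7.97-fold difference in signal. No other row rose more with shRNA 3, where 0.548% of all genes were at least 2-fold above the controls. The differences were -0.22 for shRNA 1 and -0.07 for shRNA 2, so the groups overlapped, and the mean of the 3 shRNAs was 0.90 above the controls only through shRNA 3. Without that array the difference was -0.15.

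The low values of SELENOP sat at the dim end of each array. They stood at the 16.1 to 19.5 percentile of all rows in the 4 low arrays and at the 64.4 percentile with shRNA 3. The files give no detection call, so it is not known whether SELENOP was above background in those 4 arrays, and the fold may understate the change. TAX1BP3 read 9.61 with shRNA 2, where SELENOP read 5.88, and 9.55 with shRNA 3, where SELENOP read 8.94. A part of the depth of TIP-1 silencing in the rise of SELENOP was not tested.

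**Figure D1:**
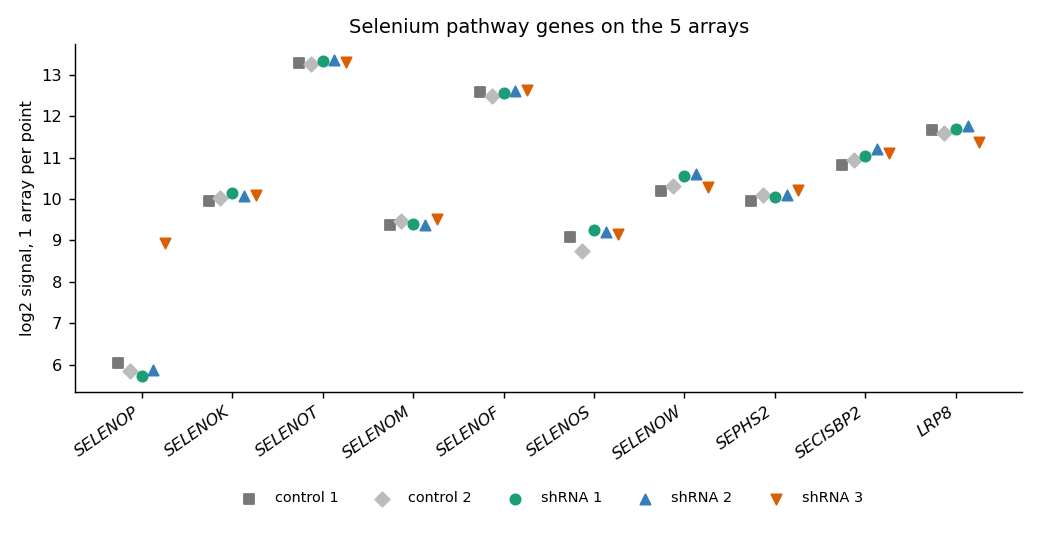
Log2 signal (vertical axis) of the 10 genes (horizontal axis), with 1 point per array: squares and diamonds are controls 1 and 2, and circles, upward and downward triangles are shRNAs 1, 2 and 3. SELENOP reads 5.73 to 6.04 on 4 arrays and 8.94 with shRNA 3, while the points of every other gene lie within 0.51 of each other; heights are not comparable between genes.

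The other members stayed within narrow bounds. With shRNA 3 their differences from the control mean ran from -0.26 (LRP8) to 0.24 (SELENOS), and 0 of 9 were 2-fold away in either direction, as were 0.695% of all genes with this shRNA. With shRNA 1 they ran from -0.02 to 0.34 and with shRNA 2 from -0.04 to 0.34, again with 0 of 9 at 2-fold (0.418% and 0.434% of all genes). None of the 9 passed the limma test of all 3 shRNAs against the controls, adjusted over all rows (smallest adjusted p = 0.707). The test called 0.003% of rows, and 1 of the 9 had an unadjusted p under 0.05, against 6.95% of rows and 1108 of 18417 genes. Of the 9 differences, 8 were above 0 and 1 below, where 8758 of 18417 genes were above and 9659 below. The median of the 9 was 0.10, and that of all genes was -0.01.

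**Figure D2:**
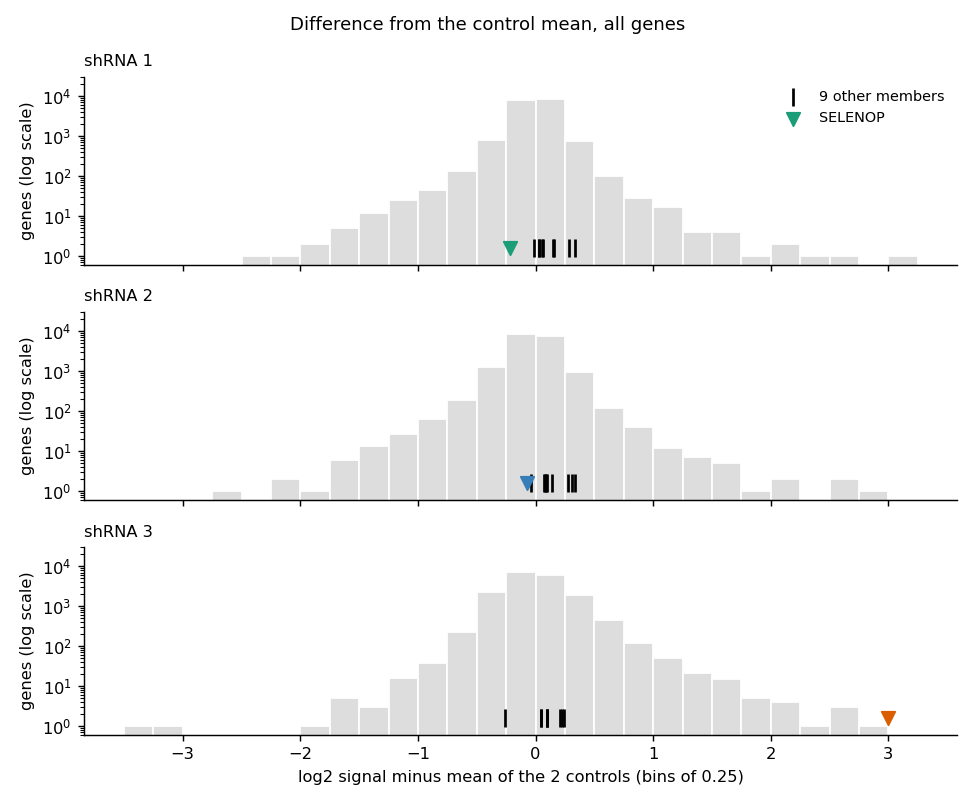
Number of genes (vertical axis, log scale) by log2 difference from the mean of the 2 controls (horizontal axis, bins of 0.25), with 1 panel per shRNA and bars over all 18417 genes. The triangle marks SELENOP, at -0.22, -0.07 and 2.99 with shRNAs 1, 2 and 3, and the short vertical lines mark the other 9 members, which stay between -0.26 and 0.34.

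Of the 2 factors of selenocysteine synthesis and insertion, SECISBP2 had the smallest p among the members. The control arrays gave 10.83 and 10.95, and the shRNA arrays gave 11.04, 11.20 and 11.12 in order of their number. All 3 shRNA arrays lay above both controls. The difference was 0.23, or 1.17-fold (SE 0.09, 95% interval 0.00 to 0.45), and it did not pass (limma unadjusted p = 0.0467, adjusted p = 0.707). SEPHS2, itself a selenoprotein, read 9.95 and 10.09 in the controls, against 10.05, 10.10 and 10.23 with the shRNAs. Its groups overlapped, with shRNA 3 the highest array, and the difference was 0.10 (95% interval -0.13 to 0.34, adjusted p = 0.796).

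The selenoproteins SELENOS, SELENOK, SELENOT, SELENOF and SELENOM reside in the endoplasmic reticulum. SELENOS, which helps to draw misfolded proteins out of it for degradation, read 9.09 and 8.74 in the controls, against 9.25, 9.19 and 9.16 with shRNAs 1, 2 and 3. The shRNA arrays were all above both controls, but the controls were farther apart than the 3 shRNAs. The difference of 0.29 (SE 0.12, 95% interval -0.00 to 0.58) did not pass (limma adjusted p = 0.707), and it was 0.12 without control 2 and 0.46 without control 1.

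SELENOK, a membrane protein that works with the palmitoyl transferase ZDHHC6, read 9.95 and 10.03 in the controls, against 10.15, 10.08 and 10.09 with the shRNAs. The groups did not overlap, yet the whole range was 0.20. Its difference was 0.12 (95% interval -0.08 to 0.31, limma adjusted p = 0.753).

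SELENOT, a thioredoxin-like enzyme, read 13.28 and 13.26 in the controls, against 13.33, 13.36 and 13.32 with the shRNAs, a difference of 0.07 (95% interval -0.12 to 0.26, limma adjusted p = 0.836). These arrays did not overlap by group either, at a range of 0.10. A second SELENOT row overlapped, at 12.93 and 13.14 against 13.04, 13.07 and 13.02 (difference 0.01). The gene table also lists 2 SELENOT pseudogenes, SELENOTP1 and SELENOTP2, so which copy a row measured is uncertain.

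SELENOF, a partner of the glycoprotein folding sensor UGGT1, read 12.58 and 12.49 in the controls, against 12.56, 12.61 and 12.63 with the shRNAs. The groups overlapped, and the difference was 0.07 (95% interval -0.13 to 0.27, limma adjusted p = 0.846). SELENOM, another thioredoxin-like protein, read 9.36 and 9.48 against 9.40, 9.38 and 9.52. Its difference of 0.01 (95% interval -0.21 to 0.24, adjusted p = 0.972) changed sign with quantile normalization, with array weights and without control 1 or shRNA 3. The replicate block gave the same estimate as leaving out shRNA 3.

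SELENOW, a small cytosolic selenoprotein whose RNA is known to follow selenium supply, split the shRNAs. It read 10.20 and 10.32 in the controls, 10.55 and 10.59 with shRNAs 1 and 2, and 10.30 with shRNA 3. The first pair lay above both controls and shRNA 3 between them. Differences from the control mean were 0.29, 0.34 and 0.05, and the overall difference of 0.22 (95% interval -0.06 to 0.51) did not pass (limma adjusted p = 0.713).

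LRP8, the receptor for selenoprotein P and for reelin, was lowest on the array where SELENOP was high. It read 11.67 and 11.60 in the controls, 11.69 and 11.77 with shRNAs 1 and 2, and 11.37 with shRNA 3. That array lay 0.26 below the control mean, a gap larger than that between the controls, while shRNAs 1 and 2 lay 0.06 and 0.14 above it. LRP8 was 1 of 2336 genes, of 18417, that lay 0.25 to 0.5 below the control mean with shRNA 3. With shRNAs 1 and 2, 776 and 1257 genes did. For LRP8 the difference across the 3 shRNAs was -0.02 (95% interval -0.35 to 0.31, limma adjusted p = 0.974). Its sign was not stable: the difference was 0.04 after median centring, 0.08 with array weights and 0.10 without shRNA 3.

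In all, 4 of the 9 genes (SELENOK, SELENOT, SELENOS and SECISBP2) had every shRNA array above both controls and 0 had every one below, where 12.5% of all genes were above and 14.1% below. The same 4 were separated after quantile normalization, and SELENOW joined them after median centring. The shares of all genes are for the deposited values and were not counted after rescaling, so these 2 counts have no background. Median centring also moved the median difference of all genes from -0.01 to 0.05. SELENOT was counted by its brighter row, while its other row overlapped as deposited (difference 0.01). The upper quartile of the arrays was 9.77 in both controls and 9.79, 9.80 and 9.83 with shRNAs 1, 2 and 3. The part of this difference in the count was not tested.

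The rest of the pathway was taken from 6 lists with 60 genes, of which 52 had a row of their own. None passed the limma test, and 3 had an unadjusted p under 0.05 (6.95% of rows and 1108 of 18417 genes did). The groups did not overlap for 4 genes higher and 9 lower with TIP-1 shRNA, where 12.5% and 14.1% of all genes did so. With shRNA 3 they lay between -0.48 and 0.66 of the control mean, so none came near the rise of SELENOP.

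The other selenoproteins, 16 measured of 17, had a median difference of 0.02, with 8 higher and 8 lower. DIO2, which activates thyroid hormone, read 7.72 and 7.28 in the controls, 8.55 and 8.43 with shRNAs 1 and 2, and 7.80 with shRNA 3. Its highest values were thus on 2 arrays where SELENOP was low (overall difference 0.76, 95% interval 0.15 to 1.37, limma adjusted p = 0.707). SELENOH, a nuclear redox protein, read 8.65 and 8.69 against 8.92, 8.88 and 9.08 (difference 0.29, limma adjusted p = 0.707). The secreted peroxidase GPX3, chosen after its values were seen, differed from the control mean by 0.35 and 0.36 with shRNAs 1 and 2 and by -0.43 with shRNA 3.

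Factors of selenocysteine synthesis, insertion and recycling, 10 measured of 11, had a median of -0.03. The widest differences were -0.15 for SEPHS1, a relative of SEPHS2 without selenocysteine, and 0.13 for SARS1, which charges the selenocysteine tRNA with serine (limma adjusted p = 0.733 and 0.738). Other receptors and ligands of the LRP8 system, 6 of 8, had a median of -0.05. LRP1, which also takes up selenoprotein P, read 10.01 and 9.51 in the controls, against 9.84, 9.59 and 9.28 with the shRNAs, a difference of -0.19 that was 0.06 without control 1. VLDLR, the reelin receptor most like LRP8, read 9.08 and 9.07 in the controls, 9.38 and 9.24 with shRNAs 1 and 2, and 8.85 with shRNA 3. It differed by 0.08, and by -0.03 without shRNA 1. With shRNA 3, 6 of 6 genes of this list were below the control mean, as were 53.1% of all genes. After quantile normalization 5 of 6 were (50% of all genes), and after median centring 4 of 6 (37.1% of all genes).

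Factors known to act on the SELENOP promoter in liver were measured for 4 of 6 genes. FOXO1 read 9.70 and 9.68 in the controls, against 9.66, 9.60 and 9.46 with shRNAs 1, 2 and 3, lowest where SELENOP was highest (difference -0.12, 95% interval -0.34 to 0.11, limma adjusted p = 0.766). FOXO3 differed by -0.18 (adjusted p = 0.719). The coactivator PPARGC1A, chosen after its values were seen, was dim on all arrays and highest with shRNA 3, at 6.49 against 5.77 and 6.05 in the controls. These are RNA levels, while FOXO factors are known to be controlled largely by phosphorylation.

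Partners of SELENOS, SELENOK and SELENOF in the endoplasmic reticulum, 14 of 15, had a median of -0.03. UGGT2 differed by 0.28, but its controls read 9.10 and 8.16 and the shRNAs 8.92, 8.91 and 8.90, and without control 2 the difference was -0.19. DERL3, a derlin, differed by -0.17 (limma adjusted p = 0.724). In the last list, 2 of 3 genes were measured. SELENBP1, which binds selenium, read 9.82 and 9.73 in the controls, 9.74 and 9.76 with shRNAs 1 and 2, and 10.43 with shRNA 3. It was 0.66 above the control mean there, the highest of the 52 genes. TPMT, a methyl transferase, gave 9.68 and 9.40 in the controls and 9.82, 9.95 and 9.82 with the shRNAs (difference 0.32, limma adjusted p = 0.707).

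**Figure D3:**
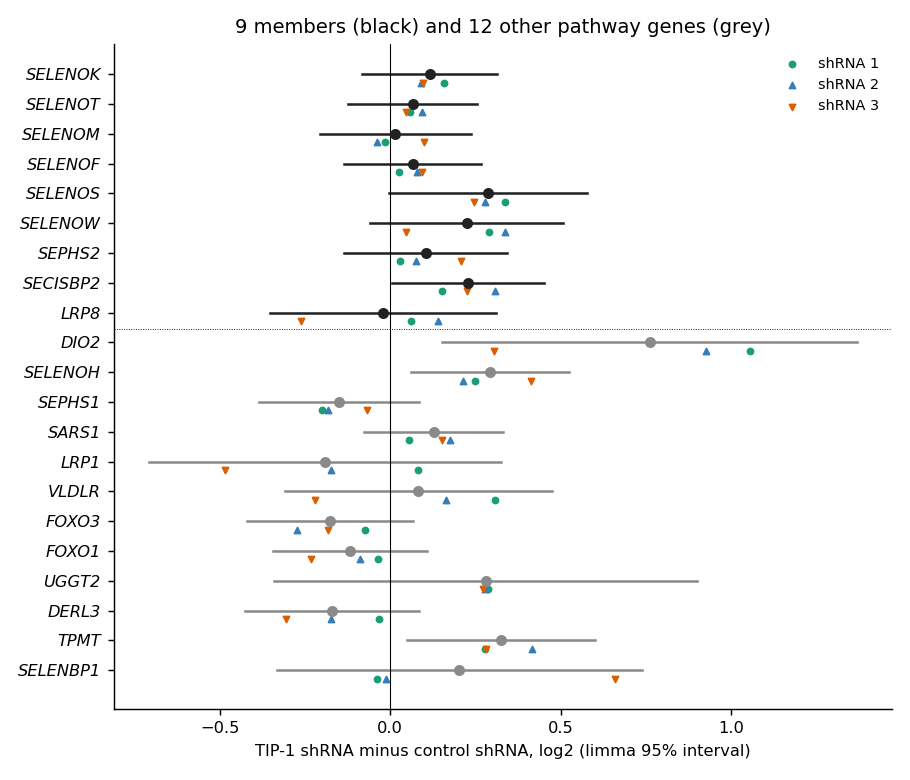
Log2 difference of TIP-1 shRNA minus control shRNA (horizontal axis) for the 9 members in black and 12 further pathway genes in grey, chosen by size of difference within their lists. Large dots and lines are limma estimates over 3 and 2 arrays with 95% intervals, and the small symbols are the single shRNAs minus the control mean; no gene passed after adjustment, and SELENBP1 with shRNA 3 (0.66) stands apart from its other arrays.

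No neighbour of SELENOP was 2-fold higher with shRNA 3. The 5 nearest genes with a row on each side, in the gene order of GRCh38.p14, lay between -0.04 and 0.45 of the control mean with shRNA 3. Nearest were the growth hormone receptor GHR, at 7.92 and 7.98 in the controls and 7.99 with shRNA 3, and ANXA2R-OT1, at 9.50 and 9.77 against 9.75. Highest were OXCT1 (0.45), RIMOC1 (0.41), PLCXD3 (0.38) and ZNF131 (0.37 above the control mean). With shRNA 3 only LOC100132356 lay below the control mean, where 53.1% of all genes did. The same neighbours ran from -0.58 to 0.05 with shRNA 1 and from -0.67 to 0.10 with shRNA 2. A shared rise of the region was not tested. CCDC152, which overlaps SELENOP in that table, was not analysed here.

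Other genes shared the pattern of SELENOP. Counting those whose shRNA 3 value was at least 1 log2 unit above the highest of the other 4 arrays, 41 genes or 0.223% qualified, SELENOP included. The value nearest inside that limit was 1.01 and nearest outside 0.99. The 10 named here had the highest Pearson correlation with SELENOP over the 5 arrays, from 0.984 to 0.998, which with 1 high array says little beyond the choice itself. They were the lipid droplet enzyme PNPLA3, the BMP antagonist CHRDL1, the actin filament cap TMOD1, the transcription cofactor VGLL3, the AMPK-related kinase NUAK2, the sulfotransferase SULT1C2, LYPD1, the zinc finger gene ZNF385D, the ciliary gene TMEM216 and the activin-binding protein FST.

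ZNF385D came closest to SELENOP in size, at 6.02 and 6.35 in the controls, 5.78 and 5.95 with shRNAs 1 and 2, and 8.81 with shRNA 3. PNPLA3, the gene most like SELENOP by correlation, read 7.48 and 7.44, then 7.34 and 7.32, and 9.05 with shRNA 3. Rises over the control mean among the 10 ran from 1.10 (TMOD1) to 2.63 (ZNF385D), all below the 2.99 of SELENOP. Of the 40 genes, 28 had 34 windows in the promoter table. GTAAACA was in 3 of these windows (8.82%, against 2.98% of all), at TCP11L2, TMPRSS15 and GDF15. It was in 0 of the 11 windows of the named genes, among which PNPLA3 had no window. TATAAA was in 5 of the 34 windows (14.7%, against 10.7% of all), GGGCGG in 23 (67.6%, against 42.6%) and CACGTG in 3 (8.82%, against 6.34%). A part of these motifs in the rises was not tested.

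**Figure D4:**
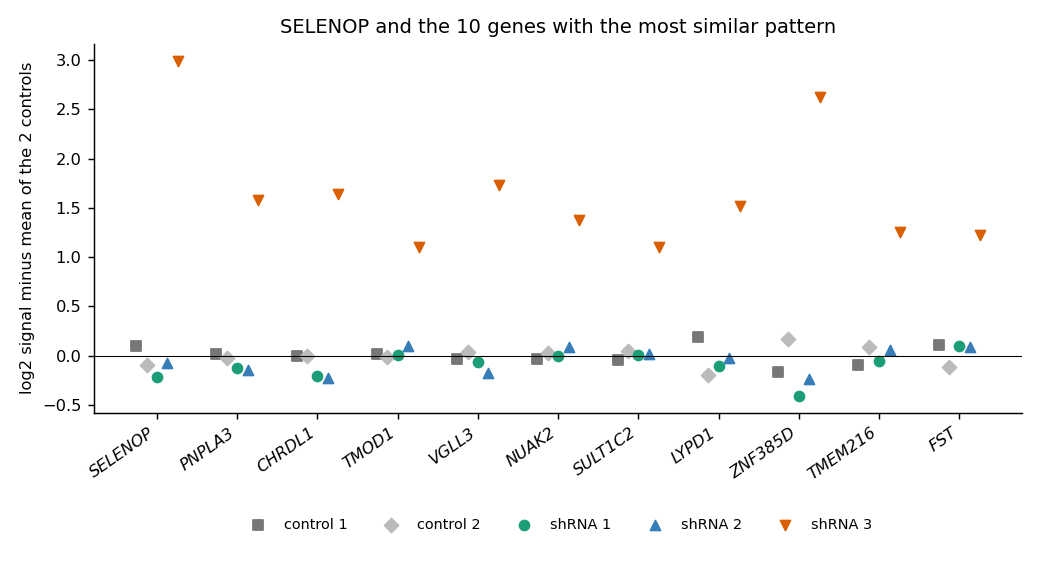
Log2 signal minus the mean of the 2 controls (vertical axis) for SELENOP and the 10 genes with the most similar pattern (horizontal axis), with 1 point per array and symbols as in the plot of the members. In each gene the downward triangle of shRNA 3 stands alone, from 1.10 in TMOD1 to 2.99 in SELENOP; the genes were chosen for this.

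Markers of cell types that make selenoprotein P, or could be present, were set beside its rise. Of 59 measured markers in 7 lists, 3 were 2-fold from the control mean with shRNA 3, where 0.695% of all genes were: PDGFRB higher by 1.14, and PTPRC and SYT1 lower. PTPRC differed by -1.15, but its controls, at 8.65 and 7.32, were themselves farther apart than that. None of 10 hepatocyte markers was among the 3, and ALB read 5.44 and 5.35 in the controls and 5.39 with shRNA 3. The summed linear signal of the hepatocyte list was 1515 and 1565 in the controls and 1387 with shRNA 3, below both. For the 12 macrophage markers, PTPRC included, it was 2345 and 2199 against 1926, with TYROBP at 9.23 and 9.40 against 9.12. For the 9 fibroblast markers it was 3090 and 2415 in the controls, 2655 and 2414 with shRNAs 1 and 2, and 3318 with shRNA 3. As for hepatocytes and macrophages, the sum with shRNA 3 was below both controls for astrocytes (17038), neurons (1322) and oligodendrocytes (883). The endothelial sum, 977, lay between its controls. The lower quartile of all rows was 6.45 and 6.44 in the controls and 6.35 with shRNA 3. PDGFRB itself, a receptor of mesenchymal cells, read 8.59 and 8.56 in the controls and 9.71 with shRNA 3. LUM, a matrix proteoglycan, lay 0.71 above the control mean there, but at 4.88 to 6.18 it was below the lower quartile of every array. COL1A2 lay 0.27 above the control mean, at 10.48 with shRNA 3, between its controls at 10.60 and 9.81. The other 6 fibroblast markers lay 0.00 to 0.23 below the control mean. The part of these markers in the rise of SELENOP was not tested.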

How the data were processed

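Total RNA of 5 D54 samples was hybridised to Affymetrix whole-transcript arrays, 1 per sample. Per the design text, the authors used the Exon Array Computational Tool of Affymetrix. Which version, background correction and normalization they used is not stated there. The deposited values are log2 signals, 1 per row, used as deposited because array quartiles nearly coincided.

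Of 33297 rows, 19460 had 1 gene symbol, 1754 several and 12083 none in the annotation, which can be old. Genes were named from rows with 1 symbol, except TAX1BP3, and the brightest row stood for each. TIP-1 shRNA (3 arrays) and control shRNA (2) were compared with limma 3.58.1 in R 4.3.3 (lmFit, eBayes, two-sided), adjusted over all rows by Benjamini-Hochberg with a threshold of 0.05, and checked on simulated data. An exact permutation test cannot go below p = 0.1 here, so none was used. The p-values rest on the spread between arrays of a group, moderated over all rows. That spread holds clone or shRNA, culture and array together, and the number of arrays limits the precision.

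The members, lists and tests were chosen with earlier results of these data known. The text names all members and, of each pathway list, the 2 genes with the largest difference among those with a mean of at least 7. It also names the 10 genes most like SELENOP, by correlation among genes at least 1 log2 unit above every other array with shRNA 3. Alternatives were quantile normalization, median centring, a filter on dim rows, a trended robust fit, array weights, the replicate number as a block, other rows per gene and leaving out each array.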

Additional observations from a re-analysis of the deposited data

How the results depend on the processing

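SELENOP with shRNA 3 stayed 2.99 above the control mean after quantile normalization, 3.08 after median centring and 2.90 to 3.09 when 1 control was left out. TAX1BP3 differed by -2.42, and by -2.50 to -2.37 when 1 array was left out, and it no longer passed when the array left out was either control or shRNA 2. Rows past the threshold numbered 1, but 2 with array weights, 15 with the replicate block and 0 to 6 when 1 array was left out. In every fit run, 0 of the 9 other members passed, and 0 of the 52 pathway genes in those fits run for the lists. Of 100 values of the 9 members, 90 kept their sign and 10 changed it, all for LRP8 (0.040 with median centring, 0.082 with array weights, 0.10 with the block, -0.10 to 0.10 when 1 array was left out) and SELENOM (-0.020 with quantile normalization, -0.020 with array weights, -0.027 with the block, -0.042 to 0.071 when 1 array was left out). Of 132 values of 12 other named genes, 5 changed sign: SELENBP1 (-0.025 with the block, -0.025 to 0.32), LRP1 (-0.44 to 0.060), UGGT2 (-0.19 to 0.75) and VLDLR (-0.029 to 0.23). The trended robust fit and the filter on dim rows leave each estimate as it was. Their values, counted in the 100 and the 132, could therefore not change sign. The block gave the same estimates as leaving out shRNA 3, so its sign changes repeat those of that fit. Causes were not tested beyond which array was left out. Arrays with the same number deviated together at r = 0.049 and -0.053, so same-numbered arrays were not treated as paired, and the block leaves shRNA 3 without a partner. Median centring moved the median of all genes from -0.01 to 0.05. Without detection calls, the low values of SELENOP have no known distance to background.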
